A study of Mus musculus with 22 samples.

Results

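The subunits of the BAF chromatin remodeling complex were followed in hematopoietic stem cells of the long-term class (LT-HSCs) that lacked or kept the aryl hydrocarbon receptor (AHR). The members were the genes Smarca2, Smarca4, Smarcb1, Smarcc1, Smarcc2, Smarcd1, Smarcd2, Smarcd3, Smarce1 and Arid1a, and they were found through the gene symbol that the array platform gives each probe set, the group of probes that reads a gene. Of these 10 genes, 9 had a probe set with no other symbol, out of 22025 such genes on the array. Smarcd1 had 2 of them, which made 10 probe sets out of 26688. The probe set of Smarcd3 also carries the symbol of Chpf2, so no value is given for Smarcd3.

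All mice were female, of the C57BL/6J strain, and carried floxed Ahr on both alleles (Ahr fx/fx). AHRVav1 mice also had 1 copy of the Vav1-Cre transgene, which deletes Ahr in blood-forming cells under the Vav1 promoter, and AHRFX controls had no Cre, so the floxed alleles were shared and the Cre was not, and effects of the deletion and of Cre cannot be told apart. The mice were 2 or 18 months old, with 5 animals of each genotype at 2 months and 6 of each at 18 months, and the RNA of each animal was amplified and put on an array of its own. LT-HSCs were sorted from lineage-depleted marrow with antibodies to CD150, which LT-HSCs carry, to CD34 and CD48, which they lack, and to the stem and progenitor markers cKit and Sca-1. Genotype came from the title and genotype labels, which are at odds with the source name and cell type labels: these call all 22 samples Ahr-KO, the floxed ones too.

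BAF complexes, also called SWI/SNF, use the energy of ATP to slide or evict nucleosomes and so open enhancers and promoters to transcription factors. Each complex holds a single ATPase, SMARCA4 (BRG1) or SMARCA2 (BRM). In the canonical form, which ARID1A or ARID1B marks, the ATPase sits on a core of SMARCB1, SMARCC1, SMARCC2, SMARCD and SMARCE1 subunits. Paralogs fill the same place in the complex, so cell types differ in which one they use. AHR is a ligand-activated transcription factor that binds DNA with its partner ARNT at sites with the core GCGTG, and SMARCA4 is known as a coactivator of AHR in mouse hepatoma cells.

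A probe set with the symbol Smarcd1 had the smallest p of the members between genotypes at 18 months. What its probes read is not known, as described below. Smarcd2 and Smarcc1 changed with age in both genotypes. The promoters of these 3 genes are shown because of those results. Each runs 5′ to 3′ on the strand of its gene, from 250 bases before to 50 after the start, as RefSeq gives it for GRCm38.p6, with the AHR core in capitals (GCGTG, or CACGC where it lies on the other strand). The windows are chr15:99702037-99702336 (plus strand) for Smarcd1, chr11:106267583-106267882 (minus strand) for Smarcd2 and chr9:110131774-110132073 (plus strand) for Smarcc1.
Smarcd1: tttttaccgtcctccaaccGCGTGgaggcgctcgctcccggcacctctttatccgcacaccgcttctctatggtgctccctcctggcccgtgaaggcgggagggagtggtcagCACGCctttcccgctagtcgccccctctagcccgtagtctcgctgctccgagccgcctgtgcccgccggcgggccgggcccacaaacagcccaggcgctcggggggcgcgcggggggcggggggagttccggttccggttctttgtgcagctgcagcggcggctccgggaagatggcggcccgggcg
Smarcd2: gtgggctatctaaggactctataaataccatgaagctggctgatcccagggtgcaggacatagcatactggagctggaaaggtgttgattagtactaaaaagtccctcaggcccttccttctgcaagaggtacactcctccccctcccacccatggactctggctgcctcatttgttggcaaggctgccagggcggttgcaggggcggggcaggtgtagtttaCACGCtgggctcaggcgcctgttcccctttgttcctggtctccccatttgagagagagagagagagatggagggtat
Smarcc1: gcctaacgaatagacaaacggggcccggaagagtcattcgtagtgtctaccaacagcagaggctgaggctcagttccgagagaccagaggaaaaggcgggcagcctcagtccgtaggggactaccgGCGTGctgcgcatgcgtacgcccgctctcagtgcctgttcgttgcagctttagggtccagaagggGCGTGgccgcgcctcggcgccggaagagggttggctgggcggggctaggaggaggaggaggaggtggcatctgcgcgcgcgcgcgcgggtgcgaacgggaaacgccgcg
Smarcd1 held the core at 231 bases before the start and, on the other strand, at 137 bases before it, Smarcc1 at 124 and 59 bases before it, and Smarcd2 at 27 bases before it on the other strand. A window was given for 9 of the 10 genes, all but Smarce1, and 6 of the 9 held the core at least once (Smarca4, Smarcb1, Smarcc1, Smarcd1, Smarcd2 and Smarcd3). Of all 32851 windows of 300 bases, searched on both strands, 32.4% held it. This sets genes against windows, and the windows were not matched for base content. Those of the members were 55% (Smarcd2) to 81% (Smarcc2) G and C. The E-box CANNTG, a site for other factors of the same helix-loop-helix family, was in 6 of the 9 genes against 72.3% of all windows, and it overlapped no AHR core in the members' windows. These are matches of letters and not measured binding.

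Values are signals on a linear scale with no absolute unit, and differences between groups are given on the scale of log2(signal + 16). A signal was called above background on an array when it passed the 95th percentile of the 1401 probe sets of olfactory and vomeronasal receptors. These genes were assumed to be silent in blood cells, which was not tested. Arrays of the 2 ages differed in quality. At 2 months 24.4% to 34.3% of all probe sets were above background and arrays of a group correlated at 0.682 to 0.774, while at 18 months the share was 52.3% to 58.7% and the correlation 0.95 to 0.981 (across probe sets, which are not independent). The median signal of an array was 28.5 to 30.4 at 2 months and 34.2 to 35.8 at 18 months, so normalization had not given the ages the same scale. Arrays numbered 1 and 2 stood apart from those numbered 3 to 6 at 18 months: deviations from the group means correlated across genotypes at 0.215 on average within the first set and at -0.133 between the sets. At 18 months 10 to 11 of the 11 measured marker genes of the stem cell gate and LT-HSC identity were above background on each array, as were Cd48 and Cd34, whose products the gate excludes, and Flt3, a gene of later progenitors that was not in the staining panel. At 2 months 6 to 9 of the 11 were.

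Ahr itself, the deleted gene, had signals of 18.1 to 38.1 in the 6 AHRVav1 animals and 23.6 to 97.2 in the 6 AHRFX animals at 18 months. The groups overlapped, and the signal was above background in 2 of 6 and 5 of 6 arrays. The log2 difference was -0.57 (exact permutation p = 0.0238, two-sided, smallest possible 0.00216), and limma's adjusted p over all probe sets was 0.793. The labels do not say where the Ahr probes lie relative to the floxed part of the gene. These signals thus do not measure how complete the deletion was. At 2 months Ahr was at 2.6 to 10.1 and 2 to 7.7, above background on 0 arrays, and these arrays give no check of the deletion or of the labels.

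Most members were well expressed in LT-HSCs. At 18 months all 10 probe sets were above background on all 12 arrays. At 2 months 8 to 10 of them were in AHRFX and 7 to 9 in AHRVav1, and the ones that fell short were mainly Smarcd2, above background on 4 of 5 AHRFX and 0 of 5 AHRVav1 arrays, and a probe set of Smarcd1, above it on 1 of 5 arrays in each genotype, along with Smarcb1 and Arid1a on 1 AHRVav1 array each. Members also varied more between young animals: in log2 units the median standard deviation of a member was 0.784 in young AHRFX, 0.746 in young AHRVav1, 0.239 in old AHRFX and 0.145 in old AHRVav1, beside 0.484, 0.485, 0.24 and 0.212 over all probe sets. Fewer cells of a type and less RNA per cell cannot be told apart in RNA of sorted pools.

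**Figure D1:**
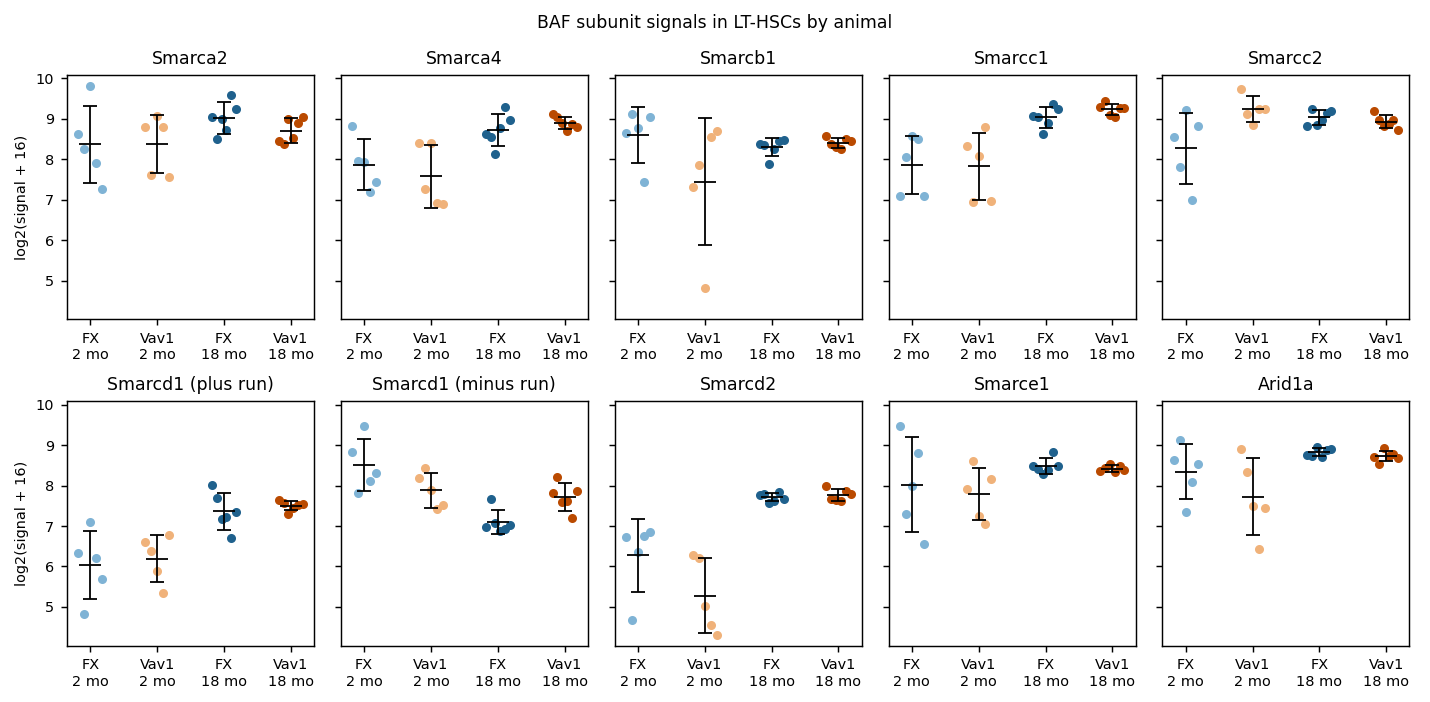
Signal of each BAF probe set, as log2(signal + 16), in each of the 22 animals, with the group mean and standard deviation as bars. FX stands for AHRFX and Vav1 for AHRVav1, with 5 animals a group at 2 months and 6 at 18 months. Points of the young animals scatter widely, while those of the old animals lie closer together in every panel.

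AHRVav1 and AHRFX animals of 18 months were compared to ask which subunits differ in aged stem cells without AHR. No member passed the adjusted test, and 0% of all probe sets did (the smallest adjusted p was 0.661). The smallest p among the members was that of Smarcd1, which links the complex to nuclear receptors and other transcription factors, and its probe sets gave different answers. At an unadjusted p under 0.05, which 6.18% of all probe sets reached (1648 by limma, 1662 without limma's moderation of the spread), 1 of the 10 members' probe sets stood.

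That was the Smarcd1 probe set 17321620. Its signals were 109.9, 189.1, 118.1, 101.6, 106.3 and 113.3 in AHRFX animals 1 to 6 and 209.7, 278.9, 178.8, 179, 130.3 and 217.2 in AHRVav1 animals 1 to 6. AHRVav1 animals were high, and 5 of the 6 AHRFX animals lay under every AHRVav1 animal, while AHRFX animal 2 lay inside their range. The mean and SD over 6 animals were 199 ± 49.7 in AHRVav1 and 123 ± 32.9 in AHRFX, a log2 difference of 0.62 (SE 0.176, 95% interval 0.25 to 1, limma unadjusted p = 0.00268, adjusted p = 0.793). The difference was 0.68 within arrays 1 and 2, which were taken alone only after the data were seen, and 0.59 within arrays 3 to 6. Leaving out 1 array at a time gave 0.53 to 0.74.

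The other Smarcd1 probe set, 17314872, had signals from 88.4 through a median of 139.15 to 244.7 in AHRFX and from 141.2 through 168.95 to 185.6 in AHRVav1. The AHRVav1 animals lay inside the AHRFX range. The log2 difference was 0.15 (95% interval -0.24 to 0.53, limma adjusted p = 0.914). It was -0.25 within arrays 1 and 2 and 0.35 within arrays 3 to 6. Across the 12 old animals the Smarcd1 probe sets correlated at r = 0.377 (rho = 0.538), as a description over arrays that share their processing.

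The place of these probe sets in the order of identifiers differed too. On this array identifiers run along a chromosome by strand: of 17569 probe sets with a known gene strand and at least 5 neighbours of known strand among the 10 identifiers on each side, 16945 lay among genes of their own strand. Smarcd1 is on the plus strand of chromosome 15. The neighbours of 17314872 were 11 plus-strand and 0 minus-strand genes, and those of 17321620 were 1 plus-strand and 13 minus-strand genes. The latter thus lay in a run of the strand opposite to its gene, as 624 probe sets did (3.55%), and no source used here says what its probes read. They are called the plus-run (17314872) and minus-run (17321620) probe sets below, and a difference in the minus-run probe set cannot be taken as one of the Smarcd1 messenger RNA without that knowledge. The other members lay among genes of their own strand, save Smarce1, for which no strand was given.

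**Figure D2:**
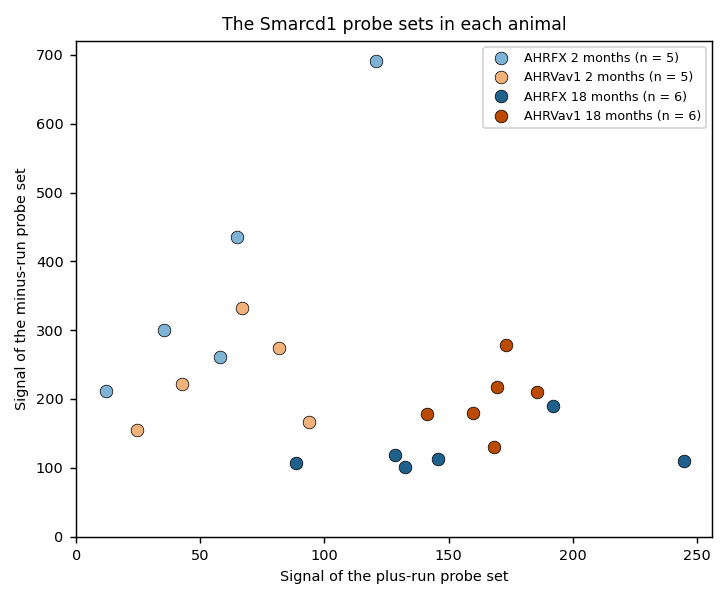
Signal of the minus-run Smarcd1 probe set (vertical axis) against that of the plus-run probe set (horizontal axis), both linear, in each of the 22 animals, coloured by group. At 18 months AHRVav1 animals lie above most AHRFX animals on the vertical axis and inside their range on the horizontal one, and young animals lie to the left, where 8 of the 10 plus-run signals were not above background.

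The remaining members moved little between genotypes at 18 months. Log2 differences ran from -0.31 for Smarca2 to 0.2 for Smarcc1, with limma adjusted p-values of 0.834 to 0.958 and every 95% interval spanning 0. Smarca4, the ATPase also named BRG1, had signals of 265.6, 400.6 and 614.3 (lowest, median, highest) in AHRFX and 402.5, 456.65 and 536.5 in AHRVav1, a log2 difference of 0.18 (95% interval -0.17 to 0.52). Smarca2, the other ATPase, was at 345.9, 505.75 and 758.3 in AHRFX and 316.1, 406.6 and 509.4 in AHRVav1 (95% interval -0.69 to 0.08). For both, the AHRFX range took in most AHRVav1 animals. Smarcc1, a scaffold subunit that stabilizes the complex, was at 379.1, 514.7 and 644.8 in AHRFX and 516.7, 600.6 and 680.3 in AHRVav1, with an interval of -0.07 to 0.47. Smarcb1, the core subunit lost in rhabdoid tumors, differed by 0.11, Smarcc2 by -0.11, Arid1a, which binds DNA with its ARID domain, by -0.1, Smarce1, an HMG-domain subunit, by -0.06, and Smarcd2, which mice and humans need to form granulocytes, by 0.05. The intervals bound these at a magnitude of 0.37 or less for Smarcb1, Smarcc2, Arid1a, Smarce1 and Smarcd2. Over the 10 probe sets 6 were above 0 with a median of 0.08, and over all probe sets 50.1% were, with a median of 0. No member had groups that did not overlap, and 0.378% of all probe sets did.

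Ratios between paralogs within an animal were read only for their change between groups. The log2 ratio of Smarca4 to Smarca2 at 18 months, as mean and SD over 6 animals, was -0.29 ± 0.347 in AHRFX against 0.19 ± 0.395 in AHRVav1, and that of Smarcc1 to Smarcc2 was 0 ± 0.197 and 0.31 ± 0.176. The AHRVav1 values were the higher on average in both, and the ranges overlapped (-0.87 to 0.07 and -0.24 to 0.67 for the ATPases, -0.22 to 0.23 and 0.09 to 0.56 for the scaffolds). The ratio of Smarcd1 to Smarcd2 was -0.62 ± 0.285 and -0.04 ± 0.395 with the minus-run probe set and -0.35 ± 0.46 and -0.25 ± 0.108 with the plus-run probe set. The shift in that ratio thus depended on the probe set.

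Markers of LT-HSCs, of the cell cycle and of other cell types were set beside these values at 18 months, and no marker passed the adjusted test. LT-HSC marker genes were lower in AHRVav1 for 11 of 11 (0 of 11 above 0, median log2 difference -0.17), and their summed signal was 2751 to 4658 in AHRVav1 and 3773 to 4862 in AHRFX. Genes of the S, G2 and M phases were above 0 for 13 of 15 (median 0.19, sums of 8927 to 12390 against 8674 to 10280). Megakaryocyte genes were above 0 for 0 of 10, erythroid genes for 6 of 7, granulocyte genes for 2 of 12, monocyte genes for 3 of 12, B cell genes for 2 of 9, T and NK cell genes for 3 of 10, Cd48, Cd34 and Flt3 for 0 of 3, and endothelial and stromal genes for 1 of 10. Their part in the members' values was not tested.

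In young mice the same comparison asked what loss of AHR does before the stem cells age. No member and no other probe set passed (0% of all probe sets, smallest adjusted p 0.632), and 1 member's probe set reached an unadjusted p under 0.05, as 4.64% of all did (1237 by limma, 1295 without moderation). It was Smarcc2, the paralog of Smarcc1. Its signals were 356.9, 208.7, 578.9, 112.2 and 433.5 in AHRFX animals 1 to 5 and 837.6, 543.8, 447.1, 588.7 and 586.3 in AHRVav1 animals 1 to 5. AHRVav1 animals were high, and 4 of the 5 AHRFX animals lay under all of them. The log2 difference was 0.96 (SE 0.412, 95% interval 0.05 to 1.87, limma unadjusted p = 0.0396, adjusted p = 0.966).

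Smarcb1 had signals of 143.4, 214.7, 12.1, 359.5 and 401.8 in AHRVav1 against 383.9, 537.2, 421.3, 156.2 and 514.7 in AHRFX at 2 months, a log2 difference of -1.15 (95% interval -2.7 to 0.39). AHRVav1 animal 3, whose signal of 12.1 was not above background, was far under the rest, and without it the difference was -0.5. Smarcd2 was at 61.8, 58.5, 16.5, 7.6 and 3.9 in AHRVav1, none of them above background, and at 90, 9.7, 65.8, 91.2 and 99.4 in AHRFX, so the -0.99 between them has no reliable size. The minus-run Smarcd1 probe set was at 273.4, 331.7, 222.2, 154.6 and 166.9 in AHRVav1 and 436, 210.8, 691.1, 260.8 and 300.7 in AHRFX, a difference of -0.62 (95% interval -1.45 to 0.21), opposite in sign to 18 months. The other probe sets differed by -0.63 (Arid1a) to 0.17 (plus-run Smarcd1, which was above background on 1 of 5 arrays in each genotype), and none of the 10 had groups that did not overlap, as 0.858% of all probe sets had. The members' median was -0.26 with 3 of 10 above 0, beside -0.01 and 48.6% over all probe sets.

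**Figure D3:**
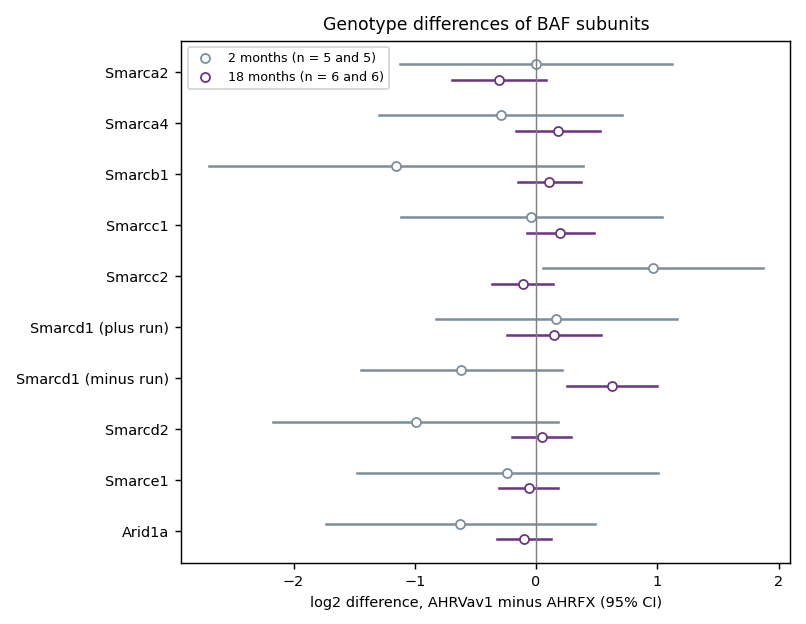
Log2 difference AHRVav1 minus AHRFX of each BAF probe set at 2 months (n = 5 and 5) and at 18 months (n = 6 and 6), with the 95% interval from limma. No probe set passed the adjusted test at either age. The young intervals are wider, and that of the minus-run Smarcd1 probe set at 18 months, 0.25 to 1, and that of Smarcc2 at 2 months, 0.05 to 1.87, lie above 0.

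The genotype effect was then compared between the ages with all 4 groups in a single fit. No member passed (0.0112% of all probe sets, or 3, did), while 2 of the members' 10 probe sets had an unadjusted p under 0.05, as 7.93% of all did. For the minus-run Smarcd1 probe set the effect was 1.24 higher on the log2 scale at 18 than at 2 months (95% interval 0.36 to 2.12, limma unadjusted p = 0.00758, adjusted p = 0.483). For Smarcc2 it was -1.07 (95% interval -1.93 to -0.22, unadjusted p = 0.0163, adjusted p = 0.529). Plus-run Smarcd1 gave -0.02 (95% interval -1.02 to 0.98), with 8 of its 10 young signals not above background.

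The comparison of 18 with 2 months asked how the subunits change as LT-HSCs age, and each genotype was tested on its own. Several BAF subunits had higher signals in old animals. Age and the quality of the arrays cannot be told apart here, since each age differed as described in background, spread and scale. In AHRFX 3 of the 10 probe sets rose and 1 fell, beside 20.2% and 24.2% of all probe sets. In AHRVav1 5 rose and 0 fell, beside 22.8% and 26.2%. With 10 probe sets these counts do not set the members apart. The members' median log2 difference was 0.7 in AHRFX and 0.98 in AHRVav1, and that of all probe sets -0.11 and -0.09. By the 95th percentile most probe sets of the array were not above background at 2 months, while most members were, so these medians compare unlike sets. The 35 genes of other remodelers, given below, had higher medians than the members, 1.03 in AHRFX and 1.19 in AHRVav1.

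Smarcd2 and Smarcc1 and the plus-run probe set of Smarcd1 rose in both genotypes. Smarcd2 went from signals of 90, 9.7, 65.8, 91.2 and 99.4 to 175.5, 195.9 and 213.6 (lowest, median, highest) in AHRFX, a log2 difference of 1.44 (limma adjusted p = 0.00988), and the ages did not overlap. In AHRVav1 it reached 179.5, 194.95 and 238.2 at 18 months from young signals of 3.9 to 61.8 that were not above background, which makes it at least 2.3-fold higher, counting each young array at its background level where its signal was lower (fitted difference 2.48, adjusted p = 3e-04). The ranges of old animals of the 2 genotypes overlapped.

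Smarcc1 went from 121.4, 248.3, 364.9, 344.3 and 121.6 to between 379.1 and 644.8 in AHRFX (log2 difference 1.17, adjusted p = 0.014) and from 305.6, 107, 254.5, 432.2 and 109.1 to between 516.7 and 680.3 in AHRVav1 (1.41, adjusted p = 0.00562). Every old animal was above every young one of its genotype. The plus-run Smarcd1 probe set went from 64.9, 12.1, 120.8, 58 and 35.5 to between 88.4 and 244.7 in AHRFX (1.33, adjusted p = 0.0167) and from 81.8, 66.8, 42.7, 24.6 and 93.7 to between 141.2 and 185.6 in AHRVav1 (1.31, adjusted p = 0.00319). It was above background on 1 of 5 young arrays in each genotype and on every old one, so that a rise was called but 1.33 and 1.31 rest on young signals that were mostly not measured. The AHRFX groups overlapped through young animal 3 and old animal 5. Without arrays 1 and 2 at 18 months the calls of Smarcc1 (adjusted p = 0.0524) and plus-run Smarcd1 (adjusted p = 0.0784) in AHRFX were lost.

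The minus-run Smarcd1 probe set went the other way. In AHRFX it fell from young signals of 210.8 to 691.1 to old ones of 101.6 to 189.1, with no overlap (log2 difference -1.41, SE 0.334, limma adjusted p = 0.00572), while in AHRVav1 it was at 154.6 to 331.7 and 130.3 to 278.9 (-0.17, 95% interval -0.8 to 0.46, adjusted p = 0.633). The difference between these effects is the 1.24 given above, which did not pass the adjusted test. Within an old animal the log2 ratio of the minus-run to the plus-run signal was, as mean and SD over 6 animals, -0.27 ± 0.436 in AHRFX against 0.21 ± 0.319 in AHRVav1, and the ranges overlapped (-1.05 to 0.23 and -0.33 to 0.64). No such ratio is given for young animals, since the plus-run signal was above background on 2 of 10 arrays.

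Smarca4 rose in AHRVav1 (log2 difference 1.33, adjusted p = 0.00664), from 320.5, 136.8, 324.8, 105.4 and 102.7 to between 402.5 and 536.5, with no overlap. In AHRFX its difference was 0.86 with an adjusted p of 0.0518, just past the threshold, and it lay under 0.05 in 5 alternatives besides those that left out an array. Arid1a rose in AHRVav1 (1, adjusted p = 0.0461) from 464.8, 309.3, 163.9, 70.1 and 158.3 to between 354.9 and 468.6, a call that was lost without any 1 of 9 of the 11 arrays (adjusted p up to 0.0914), after a further quantile normalization (0.071), without limma's moderation (0.0622) and with arrays 3 to 6 only at 18 months (0.103), and differed by 0.48 in AHRFX (adjusted p = 0.213). Smarca2, Smarcb1, Smarcc2 and Smarce1 did not pass in either genotype, with differences of -0.3 (Smarcb1) to 0.76 (Smarcc2) in AHRFX and -0.31 (Smarcc2) to 0.96 (Smarcb1) in AHRVav1. With all 4 groups in a single fit Smarcc2 passed in AHRFX (0.76, adjusted p = 0.0372). Without young AHRFX animal 3, Smarca2 (adjusted p = 0.026) and Smarcc2 (0.0344) would pass in AHRFX, as Smarca4 would without young animal 1 (0.0117) or old animal 3, and Smarce1 would in AHRVav1 without young animal 2 (0.0272). Old and young animals did not overlap for 2 higher and 1 lower probe set in AHRFX (10.7% and 13.6% of all) and for 4 higher and 0 lower in AHRVav1 (13.1% and 15.3% of all).

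Markers of other cells and of the cell cycle also moved with age. Of the S, G2 and M phase genes 13 of 15 rose in each genotype, and their summed signal went from 3037 to 5805 up to 8674 to 10280 in AHRFX and from 3304 to 5576 up to 8927 to 12390 in AHRVav1. Cd48, whose product the gate excludes, rose by 2.98 on the log2 scale in AHRFX (adjusted p = 0.00232) and by 1.99 in AHRVav1 (adjusted p = 0.0169). Flt3 rose in AHRVav1 (adjusted p = 0.000544) and did not pass in AHRFX (0.0859), and Cd34 did not pass in either (0.0932 in AHRFX and 0.653 in AHRVav1). Of 7 erythroid genes 5 rose in AHRFX (Klf1, Epor, Car1, Tfrc and Ermap) and 3 in AHRVav1 (Car1, Tfrc and Ermap), and none fell. Megakaryocyte genes rose for 6 of 10 in each genotype. Monocyte genes rose for 7 and fell for 2 of 12 in AHRFX and rose for 8 and fell for 1 in AHRVav1, and granulocyte genes rose for 5 of 12 in AHRFX, and in AHRVav1 rose for 2 and fell for 1. Of 9 B cell genes 0 rose and 3 fell in AHRFX and 1 rose and 3 fell in AHRVav1, of 10 T and NK cell genes 3 rose and 2 fell and 2 rose and 3 fell, of 10 endothelial and stromal genes 4 rose and 2 fell and 1 rose and 3 fell, and of the 11 LT-HSC genes 2 rose and 2 fell in each. B cell genes above background on no array of a group numbered 4 in each genotype at 2 months. At 18 months they numbered 5 in AHRFX and 7 in AHRVav1. For T and NK cell genes these counts were 5 in AHRFX and 8 in AHRVav1 at 2 months, and 2 and 3 at 18 months. The background level was lower at 18 months, so falls of genes not above background are not measured losses of RNA. The part of other cells and of the cell cycle in the members' rise was not tested.

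**Figure D4:**
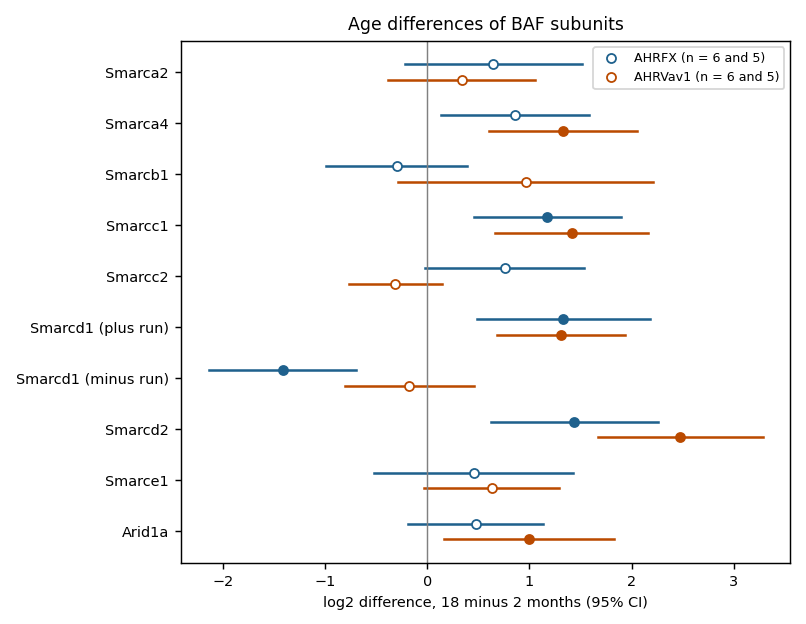
Log2 difference 18 minus 2 months of each BAF probe set in AHRFX and in AHRVav1 (n = 6 and 5 each), with the 95% interval from limma. Filled circles passed the adjusted test. The Smarcd1 probe sets lie on opposite sides of 0 in AHRFX, at 1.33 and -1.41, and the circle of Smarcd2 in AHRVav1, at 2.48, stands for a rise of at least 2.3-fold, since its young signals were not above background.

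Further subunits of the BAF family, which includes the PBAF and non-canonical forms, were measured for 20 of 21 genes. Actl6a shares its probe set with Mrpl47. None passed between genotypes at either age. At 18 months Arid1b, which takes the place of Arid1a, had a log2 difference of -0.36 (limma unadjusted p = 0.0228, adjusted p = 0.795), and at 2 months Arid2, a subunit of PBAF, had one of 1.16 (unadjusted p = 0.0277, adjusted p = 0.966). With age 3 of the 20 rose and 3 fell in AHRFX, beside 20.2% and 24.2% of all probe sets, and 5 rose and 2 fell in AHRVav1, beside 22.8% and 26.2%, so these counts do not set the subunits apart. Their median log2 difference was 0.45 in AHRFX and 0.37 in AHRVav1. Pbrm1, the bromodomain protein that defines PBAF, rose in both, by at least 3.1-fold in AHRFX, where no young array was above background (adjusted p = 0.000176), and by 2.18 on the log2 scale in AHRVav1, where 1 of 5 young arrays was (adjusted p = 0.00852). Bicra, which marks the non-canonical form, rose in both as well, by at least 1.94-fold in AHRVav1 (adjusted p = 0.000519) and by 1.75 on the log2 scale in AHRFX, where 2 of 5 young arrays were above background (adjusted p = 0.0128). Arid2 rose in AHRFX (1.86, 1 of 5 young arrays above background, adjusted p = 0.000398) and differed by 0.57 in AHRVav1 (adjusted p = 0.226). Bcl7b rose by at least 1.95-fold in AHRVav1 (adjusted p = 0.000432) and differed by 0.69 in AHRFX (adjusted p = 0.307). Dpf1, a subunit of neurons, fell in AHRVav1 (-1.39, adjusted p = 0.000617) and in AHRFX (-0.82, adjusted p = 0.0116). It was above background on every array save in old AHRVav1 animals, where 4 of 6 arrays were. Ss18l1 fell in AHRFX (-1.01, adjusted p = 0.0106) and in AHRVav1 (-0.82, adjusted p = 0.0249). The background level was lower at 18 than at 2 months as well, and its part in such falls was not tested. Bcl11b fell in AHRFX (-0.97, adjusted p = 0.00576), where 3 of 5 young and 3 of 6 old arrays were above background, and differed by -0.35 in AHRVav1 (adjusted p = 0.273). For none of these 7 genes did the difference between the genotypes' age effects pass the adjusted test.

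Of 35 genes of other ATP-dependent remodelers (ISWI, CHD, INO80 and their partners), 0 passed between genotypes, and the median difference was -0.05 at 2 and 0.04 at 18 months. With age 17 rose and 0 fell in AHRFX and 19 rose and 0 fell in AHRVav1, with medians of 1.03 and 1.19. Over all probe sets 20.2% rose and 24.2% fell in AHRFX and 22.8% rose and 26.2% fell in AHRVav1, with medians of -0.11 and -0.09. Chd1, a CHD-family ATPase, rose in both genotypes, by at least 1.83-fold in AHRFX (adjusted p = 0.000573) and by 2.24 on the log2 scale in AHRVav1, where 1 of 5 young arrays was above background (adjusted p = 5e-04). So did Baz1a, an ISWI partner, by at least 2.74-fold in AHRFX (limma adjusted p = 5.93e-05). In AHRVav1, where 1 of 5 young arrays was above background, Baz1a rose by 2.03 on the log2 scale (adjusted p = 0.00429). Rbbp4, a histone chaperone of several complexes, rose by 1.02 on the log2 scale in AHRFX (adjusted p = 0.000681) and by 1.2 in AHRVav1 (adjusted p = 0.00107). Besides Chd1, the smallest p-values in AHRVav1 were those of Baz2a, Baz2b and Smarcal1, above background on no young array there. They rose by at least 1.24-, 1.55- and 1.22-fold (adjusted p = 0.000316, 0.000472 and 0.000646). In AHRFX Baz2b rose by 1 on the log2 scale (adjusted p = 0.0482), and Baz2a and Smarcal1 did not pass (0.145 and 0.528). For Baz2a, Baz2b and Smarcal1 the difference between age effects did not pass (limma adjusted p = 0.483, 0.747 and 0.552).

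Likeness between members differed between young and old animals and is given as a description over arrays that share group and processing. Over the 12 old animals Smarcc1 correlated with Smarca4 at 0.871 and with Smarcb1 at 0.855, and Smarca4 with Smarcb1 at 0.796, while over the 10 young animals these were 0.027, -0.218 and -0.313. These pairs were picked as the highest at 18 months, so lower young values do not set them apart. The highest pairs at 2 months were minus-run Smarcd1 with Smarcd2 (0.726) and Smarca2 with Smarcc1 (0.666). Over the old animals they were at 0.128 and 0.033. At 18 months the Smarcd1 probe sets correlated less with Smarca4, Smarcc1 and Smarcb1 than these genes did with each other. The plus-run probe set gave -0.262 with Smarca4, 0.051 with Smarcc1 and 0.25 with Smarcb1, and the minus-run one gave 0.17, 0.441 and 0.227. Among the 50% of probe sets with the highest mean signal, those most like the minus-run Smarcd1 probe set over the 12 old animals were Mrpl46 (r = 0.897), 1700028J19Rik (0.889), Cfap44 (0.871), Gtf2b (0.871) and Ccnh (0.868). Those most like the plus-run probe set were Kansl2 (0.935), BC031181 (0.92), Dctpp1 (0.917), Zdhhc18 (0.908) and Mtln (0.904), so no gene was among the 5 of both.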

How the data were processed

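LT-HSC RNA from 22 mice was measured on Mouse Gene 2.0 ST arrays after WT-Ovation PicoSL amplification. The deposited values are linear intensities that the authors computed with IterPLIER in Affymetrix Expression Console, which subtracts background and quantile-normalizes; no source used here gives its version or the scan runs. Groups came from the title and genotype labels and the age; the source name and cell type labels call every sample Ahr-KO, the floxed ones included, and were not used. Of 26688 probe sets, 23321 had 1 gene symbol in the platform annotation, 1802 had several and 1565 had none.

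All probe sets were tested on log2(signal + 16) with limma 3.58.1 in R 4.3.3 (lmFit, eBayes with a mean-variance trend) on the groups compared, with Benjamini-Hochberg adjustment over all probe sets and a threshold of 0.05. The difference of genotype effects used all 4 groups. This test assumes equal spread in the groups compared, and arrays at 2 months spread more. Ahr was also tested by exact permutation. The procedure was tested on simulated data. The methods' t-test, other offsets, a filter, array weights and left-out arrays were tried as alternatives. The precision is limited by the number of arrays. Where a gene of another list had several probe sets, the one of highest mean signal was used.

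The members and the lists of other subunits, remodelers, cell types and cell cycle genes were chosen with earlier results of these data known. All members were named, along with up to 4 genes per comparison with the smallest p in each list of remodelers and the 5 genes most like Smarcd1. The strand runs, the second Smarcd1 probe set in the search for like genes and arrays 1 and 2 alone were added after the data were seen. Protein sequences were not used here.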

Additional observations from a re-analysis of the deposited data

Results flagged for a closer look

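In 4 of 40 combinations of a group and a BAF probe set, the highest or lowest animal lay apart from its group by a Dixon test, which flags about 1 in 20 groups by chance. Smarcb1 was at 156.2 in AHRFX animal 4 at 2 months, with the next animal at 383.9. Smarcd2 was at 9.7 in AHRFX animal 2 at 2 months, with the next at 65.8. Minus-run Smarcd1 was at 189.1 in AHRFX animal 2 at 18 months, with the next at 118.1, and without that animal the genotype difference at 18 months was 0.74 in place of 0.62. Smarce1 was at 441.2 in AHRFX animal 5 at 18 months, with the next at 343.4.

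The genotype effect on the minus-run Smarcd1 probe set differed between the ages by 1.24 on the log2 scale (18 minus 2 months, limma interaction term, unadjusted p = 0.00758, adjusted p = 0.483). The ranges of the genotypes overlapped at both ages. Signals were 154.6 to 331.7 in AHRVav1 and 210.8 to 691.1 in AHRFX at 2 months. At 18 months they were 130.3 to 278.9 in AHRVav1 and 101.6 to 189.1 in AHRFX.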

How the results depend on the processing

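The calls of the members were recomputed under each alternative. No member passed between genotypes in any of them. For minus-run Smarcd1 at 18 months the difference ran from 0.49 to 0.69 and the adjusted p from 0.278 to 1. Counts over all probe sets moved by over 1.5 times as follows. All 4 groups in a single fit gave 113 calls between genotypes at 2 months, arrays 1 and 2 alone gave 130 at 18 months, and the 50% of probe sets with the highest signal gave 6272 (AHRFX) and 6933 (AHRVav1) calls by age, since fewer probe sets were tested. The 3 calls of the difference of genotype effects became 0 with an offset of 64 and with arrays 3 to 6 only at 18 months, 5 among the 50% of highest signal and without the trend, and 6 with array weights. The members above background at 2 months fell to 60% (AHRFX) and 44% (AHRVav1) of probe sets and arrays with the 99th percentile, from 90% and 78%. The cause of the other changes was not tested.

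Same-numbered arrays of the 2 genotypes had deviations that correlated at 0.005 to 0.062 at 2 months and at -0.124 to 0.252 at 18 months, and the labels do not tie them. A replicate block, which gives arrays of the same number a common term, was tried as an alternative. By age it joined different animals of 2 and 18 months and left out old arrays with no young array of the same number. That pairing has no basis in the labels. With the replicate block 7097 probe sets were called by age in AHRFX, 9710 in AHRVav1, 0 between genotypes at each age and 1 for the difference of effects. Under the block Smarcc1 and plus-run Smarcd1 in AHRFX and Arid1a in AHRVav1 lost their calls by age (adjusted p = 0.0773, 0.0557 and 0.103).

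Some differences near 0 changed sign. Smarca2 at 2 months was -0.01 with an offset of 64. With arrays 1 and 2 alone at 18 months Smarcc2 was 0.05 and plus-run Smarcd1 -0.25. The difference of effects of plus-run Smarcd1 was 0.03 with an offset of 64, 0.04 with array weights and 0.18 with arrays 3 to 6 only. Leaving out 1 array at a time gave -0.28 to 0.36 for Smarca2, -0.28 to 0.18 for Smarcc1, -0.14 to 0.43 for plus-run Smarcd1 and -0.61 to 0.13 for Smarce1 at 2 months. It gave 0 to 0.07 for Smarcd2 and -0.1 to 0.01 for Smarce1 at 18 months, and -0.29 to 0.28 for plus-run Smarcd1 and -0.19 to 0.54 for Smarce1 in the difference of effects. Ahr at 2 months ran from -0.05 to 0.07. The calls between genotypes at 18 months ran from 0 to 1 (1 without AHRFX array 1), and those of the difference of effects from 0 to 13 (13 without AHRFX array 2 of 2 months). By age in AHRVav1, Arid1a ran from 0.68 to 1.3 with adjusted p-values up to 0.0914.

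At 2 months Ahr was above background on 0 arrays, Smarcd2 on 4 of 10 and plus-run Smarcd1 on 2 of 10, which limits their values there. The planned comparison of SMARCD proteins was not run, and ratios with Smarcd3 were not formed, since it has no probe set of its own.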
